A study of Sus scrofa with 10 samples.

Results

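Solute carriers are membrane proteins that move ions, sugars, amino acids, nucleosides, metals and metabolites across the plasma membrane and the membranes of organelles. Every gene whose symbol starts with SLC and a digit was taken, which gave 113 of the 4560 genes with a symbol on the array, measured by 218 of its 45220 features. Of the 113 genes, 111 encode transporters or their subunits, and SLC9A3R1 and SLC9A3R2 encode scaffold proteins that bind the sodium and proton exchanger SLC9A3. RNA came from the ampullary-isthmic junction, the stretch of oviduct in which fertilization takes place, of 5 inseminated sows (AI943, AI993, AI837, AI1059 and AI792) and 5 non-inseminated sows (AI788, AI1061, AI991, AI696 and AI992). Values of single sows are given in this order throughout, and the letters AI belong to each sow's name in the labels, with or without insemination. All sows were Landrace x Large White in spontaneous oestrus after weaning, the oviduct was removed by surgery after ovulation, and both groups went through the same surgery. Inseminated sows had received boar semen during oestrus, and the others had received none. The tissue was the whole wall, taken without flushing, so that epithelium, smooth muscle, stroma, vessels and whatever cells lay in the lumen contributed RNA.

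The oviductal epithelium makes the fluid in which sperm, oocyte and embryo live. Chloride and bicarbonate leave the cells through anion exchangers and channels and water follows, while glucose, lactate, pyruvate and amino acids reach the lumen by facilitated carriers, exchangers and sodium-coupled carriers. Other solute carriers work inside the cell, loading the Golgi with activated sugars and sulfate for secreted glycoproteins, mitochondria with phosphate and nucleotides, and vesicles with zinc.

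Values are log2 intensities after quantile normalization, a difference is the mean of inseminated sows less that of the others on that scale, and each gene is the mean of its features. The scale ran from 3.569 to 16 over all features with a median of 7.087, and probes differ in how brightly they bind, so that the order of genes is an order of signal and not of transcript number. The secretory product OVGP1 lay at 15.95 on average and the ciliary dynein DNAH9 at 15.33, both markers of the oviductal epithelium. Sow AI1061 stood apart, since it was the lowest of the 10 sows in 31.3% of all genes and the highest in 18.6%. Of the solute carriers 30.1% were lowest and 16.8% highest there, and the main results that rest on that sow are given with and without it. In whole tissue, fewer cells of a type and less RNA per cell cannot be told apart.

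Mean signals of the 113 genes ran from 6.39 to 15.85 with a median of 7.25. The table's median was passed by 64 genes (56.6%), against 65.7% of all 4560 genes, while 49 lay below it and 13 lay above 10. No detection calls were used, and signals near or below the table's median may hold little but background.

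The brightest solute carrier was SLC37A4, which moves glucose 6-phosphate into the endoplasmic reticulum for release of free glucose. Its values were 15.98, 15.85, 15.84, 15.87 and 15.72 in inseminated and 15.77, 15.92, 15.90, 15.77 and 15.86 in non-inseminated sows. The groups overlapped, and in 3 sows the feature lay within 0.1 of the scale's upper end, where differences are compressed. Next came the scaffold gene SLC9A3R1 at 14.08, which anchors transporters and channels at the apical membrane of epithelia.

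Among mitochondrial carriers, SLC25A6, which exchanges ADP for ATP, averaged 14.04 over 6 features, and SLC25A3, the phosphate carrier, averaged 13.28 over 10 features. Values of SLC25A6 were 13.85, 14.01, 13.97, 13.96 and 14 in inseminated and 13.86, 14.17, 14.31, 14.07 and 14.22 in non-inseminated sows. SLC25A3 lay at 13.38, 13.22, 13.19, 13.04 and 13.16, against 13.36, 13.27, 13.48, 13.24 and 13.44. All inseminated sows were below the non-inseminated mean in SLC25A6 and 4 of 5 in SLC25A3, and the groups overlapped in both genes. The differences were -0.17 (SE 0.10, exact permutation p = 0.0794) and -0.16 (SE 0.09, exact permutation p = 0.0556), two-sided, where the smallest p that 5 sows against 5 allow is 0.00794. In limma the unadjusted p was 0.110 and 0.106, and the adjusted p was 0.999 in both. SLC25A6 has close relatives, and since probe sequences were not used here, its features may also bind their transcripts.

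**Figure D1:**
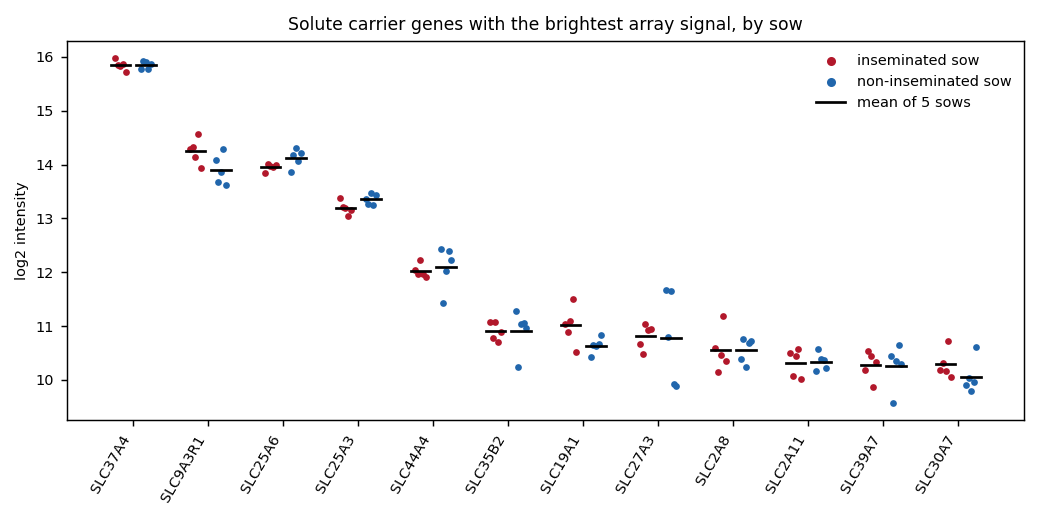
Level of the 12 solute carrier genes with the highest mean signal (log2 intensity), with a point for each of 5 inseminated and 5 non-inseminated sows and a line at the mean of each group. SLC37A4 sits near the upper end at 16, and the groups overlap in every gene.

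SLC44A4, a choline transporter-like protein known to carry thiamine pyrophosphate, averaged 12.06. That mean joins 3 features at 14.82 to 14.92 and 2 at 7.83 and 7.84, so its rank depends on which are read. Its values were 12.05, 11.97, 12.22, 11.97 and 11.91 in inseminated and 12.43, 11.42, 12.03, 12.39 and 12.22 in non-inseminated sows. AI1061 was the lowest and AI788 the highest, both non-inseminated. The difference was -0.08 (SE 0.18), and -0.25 without AI1061.

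Carriers that serve the secretory pathway followed. SLC35B2, which brings the sulfate donor of glycan sulfation into the Golgi, averaged 10.91, and SLC35C2, of the same family, 8.97. SLC35A3, which carries UDP-N-acetylglucosamine, lay at 8.56, 8.68, 8.73, 8.27 and 8.93 in inseminated and at 8.92, 7.24, 8.76, 9.10 and 9.49 in non-inseminated sows. Its lowest and its highest sow were both non-inseminated, and the SD was 0.242 in inseminated and 0.861 in non-inseminated sows (n = 5 each). Without AI1061 the latter was 0.315 (n = 4).

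For metals, 12 of the 15 carriers of families SLC11, SLC30 and SLC39 were above the table's median. SLC39A7, which releases zinc from the endoplasmic reticulum, averaged 10.27, and SLC30A7, which loads zinc into the Golgi, 10.18. SLC39A14, an importer of zinc and iron, averaged 9.96, but its 2 features lay at 6.40 and 13.52. SLC30A2, a vesicular zinc transporter best known from the mammary gland, averaged 9.26 and is described with the variable genes.

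Glucose carriers were led by SLC2A8, an intracellular glucose transporter, at 10.55, and by SLC2A11, a glucose and fructose transporter of the same family, at 10.33. SLC2A11 was the mean of a bright feature at 13.83 and a dim one at 6.83, so its rank depends on which is read. The sodium-coupled group was led by SLC5A4, known in humans as a glucose sensor, at 9.49, and SLC5A10, a carrier of mannose and fructose, lay at 7.88. Chosen for their role after their values had been seen, SLC2A1, the widespread basal glucose transporter, averaged 9.12, SLC5A1, the sodium-coupled glucose carrier of gut, 7.87, and SLC2A4, which answers to insulin, 7.54. SLC2A1 was at 9.65, 8.90, 8.76, 9.20 and 9.05 in inseminated and 9.63, 8.31, 9.63, 9.31 and 8.72 in non-inseminated sows, and the groups overlapped. Of the 8 carriers in the sugar families SLC2 and SLC45, 6 lay above the table's median and none passed an unadjusted p of 0.05. Their differences ran from -0.09 to 0.16, and from -0.21 to 0.21 without AI1061.

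For amino acids, SLC7A7, the light chain that exports cationic amino acids at the basolateral side, averaged 10.06 and SLC1A5, a glutamine exchanger, 9.96. SLC7A7 lay at 10.35, 10.04, 10.19, 9.47 and 10.13 in inseminated and at 10.75, 8.87, 10.57, 10.39 and 9.88 in non-inseminated sows. AI1061 was again the lowest. The heavy chain SLC3A2, with which SLC7A7 pairs, averaged 8.51 and was named for this role after its values had been seen. Of the 13 genes of the amino acid families 8 were above the table's median, and their differences ran from -0.25 to 0.33 with a median of -0.01, and from -0.36 to 0.48 without AI1061. In the SLC6 family, SLC6A8, which takes up creatine, averaged 7.71 and SLC6A12, which takes up betaine, 7.48.

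Lactate and pyruvate are carried by SLC16A1, which averaged 7.71, and its relatives SLC16A7 and SLC16A3, chosen for their role after their values had been seen, were at 6.77 and 6.57, below the table's median. The 7 features of SLC16A1 had means from 6.68 to 9.68. SLC16A9, another member of the SLC16 family, averaged 7.24. Fatty acid carriers were represented by SLC27A3 at 10.79 and SLC27A1 at 7.92. SLC19A1, the reduced folate carrier, averaged 10.82, and SLC52A2, a riboflavin transporter, 8.54.

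Bicarbonate and chloride carriers, the families nearest to fluid secretion, were mostly dim as means of their features. The table's median was passed by 3 of 9, SLC4A11, SLC4A2 and SLC26A11. SLC4A11, which moves protons or hydroxide and is known from the corneal endothelium, averaged 9.44 over features at 11.42 and 7.47. SLC4A2, a chloride and bicarbonate exchanger of most epithelia, averaged 8.77 over features at 12.24 and 5.30, so its rank depends on which is read. SLC26A11 averaged 8.63, with its brighter feature at 9.76. SLC26A6, an apical anion exchanger, averaged 6.93, and its brighter feature, at 7.12, lay just above the table's median. The sodium and bicarbonate cotransporter SLC4A4 lay at 6.70 and the sodium and proton exchangers SLC9A3 and SLC9A2 at 6.98 and 6.74, all below the table's median (these 3 were chosen for their role after their values had been seen). Calcium exchangers SLC8A1 and SLC8A3 averaged 6.97 and 6.76, and the phosphate carriers SLC34A3 and SLC34A2 8.48 and 7.09.

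Nucleoside carriers had 2 genes, again chosen for their role after their values had been seen. SLC29A1, the equilibrative carrier, averaged 7.87, and SLC28A1, a sodium-coupled carrier of pyrimidines, 6.62. SLC29A1 was the mean of 1 bright feature at 11.91 and others from 6.56 to 7.16, so its rank depends on which is read. SLC28A1 was at 6.65, 6.55, 6.26, 6.77 and 6.37 in inseminated and 6.56, 7.25, 6.64, 6.57 and 6.61 in non-inseminated sows. AI1061 was the highest sow in both genes. The differences were -0.06 (SE 0.09) for SLC29A1 and -0.21 (SE 0.15) for SLC28A1, and -0.02 and -0.08 without that sow.

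The comparison of groups asked whether transporter transcripts shifted after insemination. No solute carrier passed an adjusted p of 0.05 in limma (smallest 0.999), and neither did any of the 4560 genes (0%). At an unadjusted p under 0.05 limma had 2 members higher in inseminated sows, against 1.47% of all genes, and 1 lower, against 1.12%. In either direction 2.59% of all genes passed, and 3 of 113 members is close to that share. No solute carrier differed 2-fold in mean, as 0.329% of all genes did, and in none did the groups fail to overlap, against 0.461% of all genes. In mean, 52 members were higher and 61 lower, with a median difference of -0.01, the same as over all genes. Differences ran from -0.79 to 0.37, 70 were within 0.1 of 0, and the median absolute difference was 0.08, against 0.09 over all genes. The means of the secretory, ciliary, smooth muscle, stroma, endothelium and leukocyte marker lists lay within 0.06 of 0 in each group, as deviations from the mean of all sows. The secretory list also holds genes of epithelium in general.

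**Figure D2:**
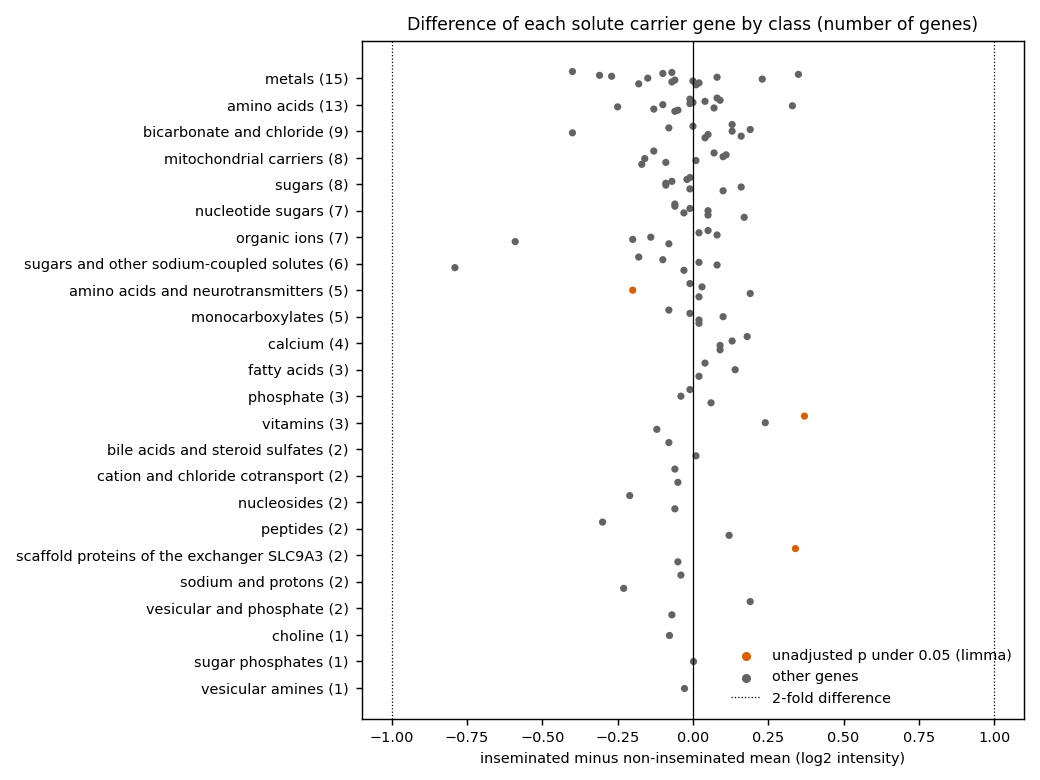
Difference between inseminated and non-inseminated sows (log2 intensity) of each of the 113 solute carrier genes, a point each, by transport group with its number of genes, and with dotted lines at a 2-fold difference. Of the points 70 lie within 0.1 of 0, 3 in orange have an unadjusted p under 0.05 in limma, and SLC5A5 at -0.79 and SLC22A7 at -0.59 are farthest from 0.

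SLC19A1, which brings folates into the cell, was 1 of the 2 genes higher in inseminated sows. Its values were 11.04, 10.89, 11.10, 11.51 and 10.51 in inseminated and 10.42, 10.65, 10.62, 10.66 and 10.84 in non-inseminated sows. All inseminated sows but AI792 were above every non-inseminated sow. The difference was 0.37 (SE 0.16, 1.29-fold), with an adjusted p of 0.999 in limma and an exact two-sided permutation p of 0.0635. Its unadjusted p in limma was 0.045. It was 0.00511 without AI792, 0.0375 without AI992 and from 0.0518 to 0.104 when any other sow was left out.

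SLC9A3R1 was at 14.28, 14.32, 14.14, 14.57 and 13.93 in inseminated and 14.09, 13.68, 13.87, 14.28 and 13.62 in non-inseminated sows. AI1059 was the highest and AI992 the lowest, and AI788 and AI696 reached into the range of the inseminated sows. The difference was 0.34 (SE 0.15, 1.27-fold), with an adjusted p of 0.999 in limma and an exact permutation p of 0.0635. Its partner SLC9A3, the exchanger, differed by -0.23 (SE 0.15), which was -0.10 without AI788. SLC9A3R2 differed by -0.05 (SE 0.20), and by -0.17 without AI1061. The unadjusted p of SLC9A3R1 was 0.04997 in limma and 0.0501 with the arrays centred on their median. It stayed under 0.05 without AI792, AI788 or AI696 and was from 0.0584 to 0.122 when any other sow was left out.

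SLC6A17, which loads amino acids into synaptic vesicles, was the 1 gene lower in inseminated sows. It was dim, at 6.83, 6.77, 6.61, 6.65 and 6.78 in inseminated and 6.94, 6.99, 6.98, 6.79 and 6.96 in non-inseminated sows. Only AI696 among non-inseminated sows fell into the inseminated range. The difference was -0.20 (SE 0.08, exact permutation p = 0.0159, adjusted p = 0.999 in limma), at a mean signal below the table's median. Its unadjusted p of 0.0315 rose to between 0.0558 and 0.0783 without AI837, AI1059, AI788, AI991 or AI992, each left out alone.

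SLC22A6, an organic anion transporter of kidney, differed by about as much at a similarly low signal. Its values were 6.87, 6.82, 6.81, 6.61 and 6.86 in inseminated and 7.02, 7.15, 6.82, 6.98 and 7.00 in non-inseminated sows. AI991 alone of the non-inseminated sows lay within the inseminated range. The difference was -0.20 (SE 0.09, exact permutation p = 0.0317, adjusted p = 0.999 in limma).

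SLC5A5, the sodium and iodide carrier of the thyroid, had the largest difference of the members. Inseminated sows lay close together at 6.66, 6.39, 6.52, 6.50 and 6.38, and non-inseminated sows at 6.45, 7.05, 6.49, 7.79 and 8.64. AI992 and AI696 were far above the rest, whereas AI788 and AI991 were among the inseminated values. The difference was -0.79 (SE 0.37, exact permutation p = 0.0952, adjusted p = 0.999 in limma). It was -0.45 without AI992 and -1.0 without AI788. Its unadjusted p in limma, 0.0549 with all sows, was under 0.05 without AI788 or AI991. SLC5A5 averaged 2 features that differed by -1.11 and -0.47. In the first, all inseminated sows lay from 5.50 to 6.08, below 6.14, the 1st percentile of all values. With dim features left out the difference was -0.47, with an unadjusted p of 0.171 in limma. AI696 and AI992 also had smooth muscle markers 0.74 and 1.28 below and secretory markers 0.25 and 0.26 above the mean of all sows, and the part of these in the values was not tested.

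Named by rank of unadjusted p among members higher in inseminated sows were also SLC26A5, the motor protein prestin of the inner ear, and SLC30A7. They differed by 0.19 (SE 0.11) and 0.23 (SE 0.17). SLC26A6, at 0.13 (SE 0.10), and SLC2A6, at 0.16 (SE 0.14), were named in the same way. The unadjusted p of these genes in limma ran from 0.106 to 0.265, so that none was small. Single sows carried much of these differences, since SLC30A7 was at 0.12 without AI1059, SLC26A6 at 0.07 without AI992 and SLC2A6 at 0.04 without AI792. SLC52A2 differed by -0.12 (SE 0.08), and by -0.08 without AI792. SLC4A1, the anion exchanger of red cells and the only red cell marker measured here, was at 6.30, 6.83, 6.56, 6.91 and 6.58 in inseminated and 6.28, 7.70, 7.21, 6.99 and 6.97 in non-inseminated sows. Its difference was -0.40 (SE 0.23, exact permutation p = 0.151) and -0.23 without AI1061, and AI788 had the lowest value of all.

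Spread among sows was close in the median to that over all genes. The SD over 10 sows ran from 0.0633 in SLC9A2 to 1.15 in SLC17A1, with a median of 0.226, against 0.223 over all genes. An SD over 0.5 was found in 13 members, which is 11.5% of them against 9.5% of all genes, and 48 members had an SD under 0.2.

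**Figure D3:**
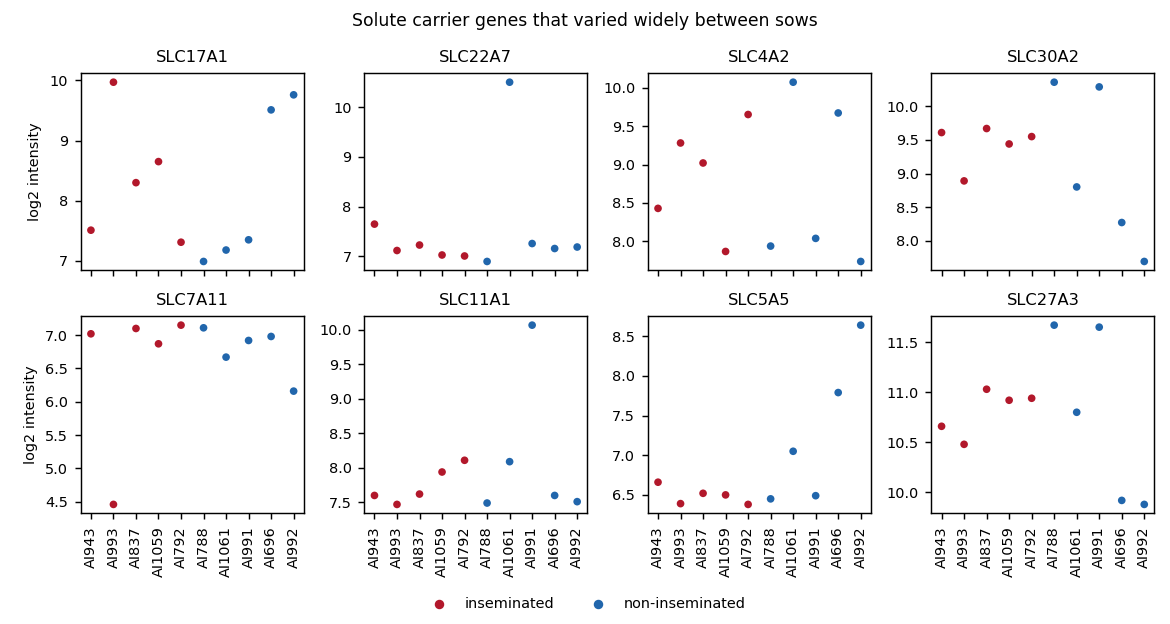
Level in each of the 10 sows (log2 intensity) of the solute carrier genes with the largest spread, with inseminated and non-inseminated sows in different colours. Both groups span most of the range in SLC17A1 and SLC4A2, and single sows stand far from the others in SLC22A7, SLC11A1 and SLC7A11.

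SLC17A1, a sodium-phosphate and urate transporter known from kidney, varied most. It was at 7.51, 9.97, 8.30, 8.65 and 7.31 in inseminated and 6.99, 7.18, 7.35, 9.51 and 9.76 in non-inseminated sows. AI993, AI992 and AI696 were the highest, and both groups spanned more than 2 units. The difference was 0.19 with an SE of 0.67, and -0.05 without AI1061.

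SLC22A7, an organic anion transporter of liver and kidney, was high in AI1061 alone. It lay at 7.65, 7.12, 7.23, 7.03 and 7.01 in inseminated and at 6.90, 10.50, 7.26, 7.16 and 7.19 in non-inseminated sows. The difference of -0.59 (SE 0.59) became 0.08 without AI1061. SLC11A1, a metal transporter of phagocytes, was likewise high in a single sow, AI991, at 10.07 against 7.47 to 8.11 in the other sows, and its difference of -0.40 (SE 0.44) became 0.08 without it. The mean of 6 leukocyte markers lay 0.09 below the mean of all sows in AI991. Of these, PTPRC, CD3D, CD3G and CD2 were below the table's median and CD14 and CD163 above it. The part of phagocytes in the value of AI991 was not tested. In SLC7A11, the cystine and glutamate exchanger, AI993 was low at 4.46 against 6.16 to 7.15 in the other sows, and the difference of -0.25 (SE 0.47) became 0.26 without it.

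SLC30A2 was at 9.61, 8.89, 9.67, 9.44 and 9.55 in inseminated and 10.36, 8.80, 10.29, 8.27 and 7.69 in non-inseminated sows. AI788 and AI991 were highest and AI992 and AI696 lowest, with all inseminated sows between them. The same order of these sows held in SLC27A3 and SLC16A1. SLC27A3, of the fatty acid transport family, was at 10.66, 10.48, 11.03, 10.92 and 10.94, against 11.67, 10.80, 11.65, 9.92 and 9.88. SLC16A1, the lactate and pyruvate carrier, was at 7.60, 7.58, 7.76, 7.71 and 7.71, against 8.23, 7.93, 8.03, 7.35 and 7.19. Of the 7 SLC16A1 features, 1 was at 12.16 in AI1061 against 8.31 to 10.30 in the other sows, which raised the mean of that sow. In these genes the non-inseminated sows varied far more among themselves than the inseminated sows, with SDs of 1.20, 0.882 and 0.450 against 0.313, 0.230 and 0.0811. The mean of 4 smooth muscle markers lay 0.22 and 0.98 above the mean of all sows in AI788 and AI991 and 0.74 and 1.28 below it in AI696 and AI992, against -0.45 to 0.60 in inseminated sows. It lay 0.65 above in AI1061, whose SLC30A2 was low at 8.80, and its part in these values was not tested. This pattern was noticed after the values had been seen and was not tested, and 25 of the 4560 genes (0.548%) had AI788 and AI991 as the highest pair and AI696 and AI992 as the lowest.

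Among groups of at least 3 members, that of the nucleotide sugar family had the largest share of members with their lowest value in AI1061. There 6 of 7 members (SLC35B2, SLC35C2, SLC35A3, SLC35B3, SLC35F3 and SLC35A4, but not SLC35D1) were lowest, against 31.3% of all genes, whereas none of the 9 bicarbonate and chloride carriers was. For the dim SLC35A4 the margin was 6.56 against 6.57 in AI943, and AI1061 was the lowest sow in neither of its features. SLC35B2 was at 10.24 in AI1061 and 10.71 to 11.28 in the other sows, and SLC35B3, the second carrier of the sulfate donor, at 7.55 against 8.14 to 8.67. Marker lists of cell types moved in the same sow. The secretory list includes KRT8, KRT18, CDH1 and EPCAM, which mark epithelium in general, and its product OVGP1 ran only from 15.91 to 15.98 over all sows. The mean of its 10 markers lay 0.66 below and that of 3 ciliary markers 1.12 below the mean of all sows. Smooth muscle and stroma markers lay 0.65 and 0.85 above. Their part in the low values was not tested. Without AI1061 the differences of SLC35B2, SLC35A3 and SLC44A4 were -0.18, -0.43 and -0.25, against -0.01, -0.06 and -0.08 with it.

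**Figure D4:**
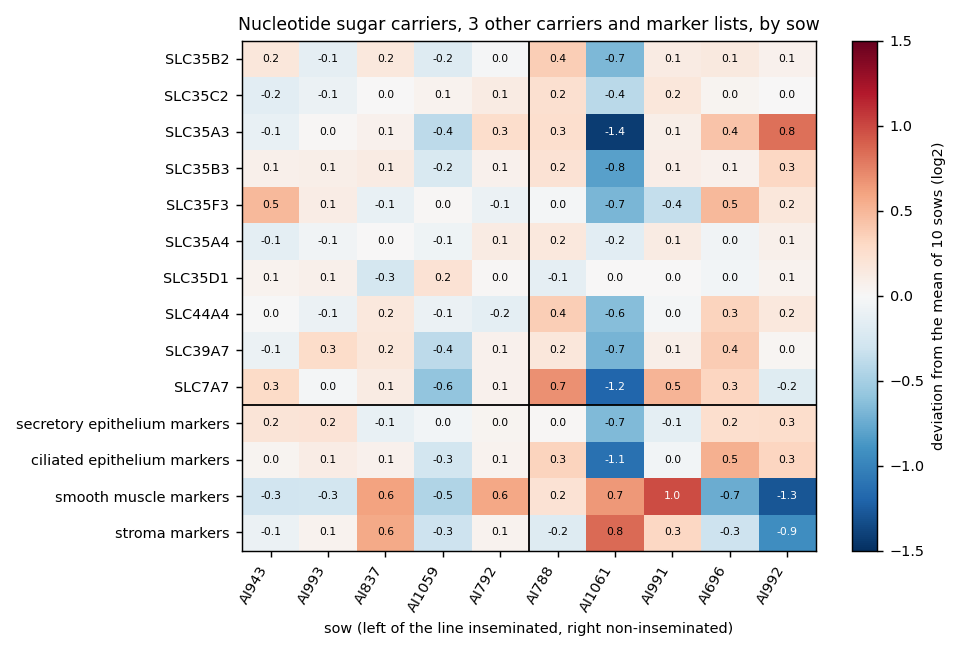
Deviation of each sow from the mean of 10 sows (log2, colour scale) for the nucleotide sugar carriers, SLC44A4, SLC39A7, SLC7A7 and the cell type marker lists. The column of AI1061 is low in most carriers shown and in secretory and ciliary markers, and high in smooth muscle and stroma markers. SLC44A4, SLC39A7 and SLC7A7, of other families, follow no rule of choice and were each lowest in AI1061. Of all members 30.1% were lowest there, against 31.3% of all genes.

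Several results rest on 1 feature. Of the 60 members with more than 1 feature, 29 had features that all differed in the same direction, and 22 had feature means more than 2 units apart. At the level of features, 4 of 218 had an unadjusted p under 0.05 in limma, against 3.37% of all features, and none passed after adjustment (0% of all features, smallest adjusted p 0.9998). The feature of SLC19A1 was higher in inseminated sows, as 2.08% of all features were, and 1 feature each of SLC25A3, SLC5A5 and SLC6A17 was lower, as 1.3% of all features were. A 2-fold difference was found in 1 member feature, of SLC5A5, against 0.349% of all features. Its difference was -1.11 at a mean of 6.32, and that of the other SLC5A5 feature -0.47 at a mean of 7.46.

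SLC4A2 shows how a dim feature can set the spread of a gene. Its bright feature lay between 11.79 and 13.29. The dim feature was at 3.57, 6.51, 6.26, 3.86 and 7.33 in inseminated and 3.91, 6.92, 3.87, 7.24 and 3.57 in non-inseminated sows. It thus fell into 5 sows from 3.57 to 3.91 and 5 sows from 6.26 to 7.33, with sows of both groups in each. Values under 5 were rare, 647 of 452200 in the whole table, and only 12 features had exactly 5 sows under 5. The bright feature alone gave a difference of -0.09, opposite to the 0.16 (SE 0.50) of the mean, which was 0.50 without AI1061. In SLC11A1 the high value of AI991 came from 1 feature, at 11.83 against 6.66 to 8.24 in the other sows, while the second feature ran from 7.98 to 8.98. In SLC30A2 the brighter feature ran from 8.33 to 12.38 and differed by 0.74, and the other by -0.04.

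**Figure D5:**
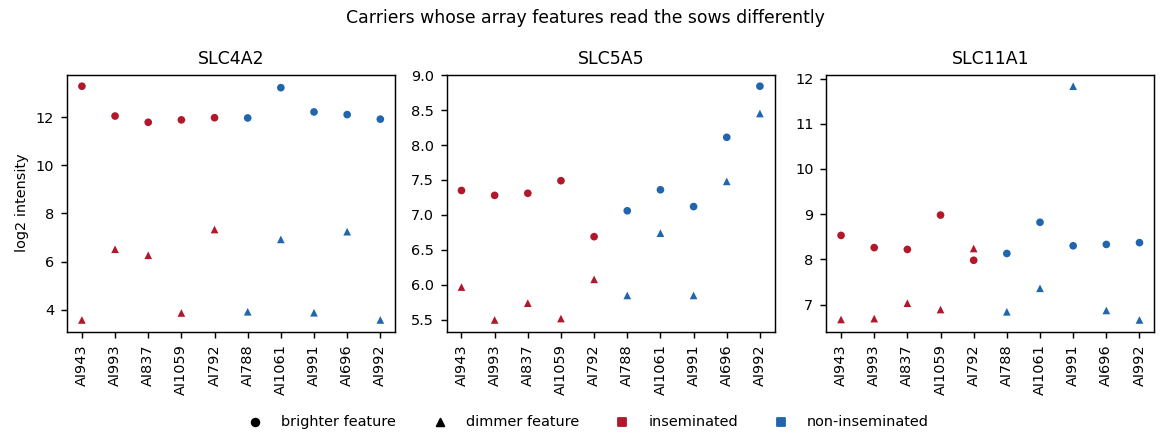
Level of the single features (log2 intensity) of SLC4A2, SLC5A5 and SLC11A1 in each of the 10 sows, with circles for the brighter and triangles for the dimmer feature. The dim SLC4A2 feature falls into 5 low and 5 high sows with both groups in each, and 1 SLC11A1 feature is high in AI991 alone.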

How the data were processed

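Each of 10 single-colour porcine arrays held RNA of 1 sow, and sows are separate animals, 5 per group. The authors took spot intensities with GenePix, subtracted background by the normexp method (offset 10) and made the arrays' distributions equal by quantile normalization. Deposited values are log2 intensities made in this way, taken here without change, and sorted values differ between arrays by at most 0.054. Spot flags, progesterone, surgery day and probe sequences were not used here. The number of arrays limits the precision.

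Symbols came from the platform annotation, updated by accession through Sscrofa11.1 for 446 of 10290 features with 1 symbol. This renamed 12 features of 6 members, and 34930 features had no symbol. Coordinates are not given, since no build is named for the array. Transport groups follow the family number of the symbol and not a measured substrate.

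Features were averaged per gene, and lmFit and eBayes of limma 3.58.1 (R 4.3.3) gave group differences over all genes or all features with Benjamini-Hochberg adjustment. Single genes were also tested by exact two-sided permutation over the 252 splits in Python 3.11.15 with numpy 2.4.6. The fit was tested on simulated data. Genes named were the 12 brightest members, the 2 brightest of each group with at least 3 members, up to 6 in each direction with the smallest unadjusted p, the 6 of largest SD, SLC5A5 and SLC4A1. Members, lists and rule were chosen with earlier results of these data known. Alternatives were quantile normalization again, centring on the median or 75th percentile, leaving out features under the 40th percentile of mean level or near the upper end, trended and robust variance, array weights, the brightest feature per gene, platform symbols, leaving out each sow and, added after the values had been seen, transporters alone.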

Additional observations from a re-analysis of the deposited data

Results flagged for a closer look

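In 12 of 84 groups of 5 sows, counted over the 42 genes named by rule, the highest or lowest sow lay farther from its neighbour than Dixon's critical value of 0.71 of the range allows. Chance flags about 1 in 20 groups of normal values, but 10% of the 9120 groups of all genes and 10.2% of the 226 groups of all members lay as far. Part of the named genes were taken for their large SD, which favours such sows, and without those 8 of 72 groups (11.1%) remained. Of the 12 groups first counted, the sow AI1061 accounted for 4. It was high for SLC22A7 at 10.50 (others of its group 6.90 to 7.26) and low for SLC34A2 at 6.59 (7.11 to 7.30), SLC4A11 at 8.91 (9.45 to 9.64) and SLC6A12 at 7.12 (7.54 to 7.64). Among the other non-inseminated sows AI991 was high for SLC11A1 at 10.07 (7.49 to 8.09), and AI696 was low for SLC6A17 at 6.79 (6.94 to 6.99).

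Inseminated sows that stood apart were all low. AI993 was low for SLC7A11 at 4.46 (6.87 to 7.15) and SLC30A2 at 8.89 (9.44 to 9.67), AI1059 for SLC22A6 at 6.61 (6.81 to 6.87) and AI943 for SLC25A6 at 13.85 (13.96 to 14.01). AI837 was low for SLC6A12 at 7.32 (7.48 to 7.53), and AI792 for SLC8A1 at 6.84 (7.03 to 7.10). The gaps in SLC25A6, SLC22A6, SLC6A12, SLC6A17 and SLC8A1 were under 0.5 on the log2 scale.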

How the results depend on the processing

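No paired analysis was possible because the labels give no number that sows of both groups share. The counts of members past adjustment and of members with a 2-fold difference were 0, and the median difference was within 0.03 of 0, under every alternative and without each sow. SLC5A5 without AI788 was at -1.0 after rounding, next to the 2-fold limit. The count higher at an unadjusted p under 0.05, 2 as reported, was 1 with centring on the median or the 75th percentile, with features under the 40th percentile or near the upper end left out, with array weights, with the brightest feature and with transporters alone. With a trended and robust variance it was 0. Transporters alone leave out the scaffold gene SLC9A3R1, 1 of the 2. The count lower, 1 as reported, was 2 with array weights or a trended and robust variance. With dim features left out it was 0. SLC6A17 has 1 feature, which lay under that limit, so the gene was dropped and not tested again. Without 1 sow the counts ran from 0 to 2 higher and from 0 to 4 lower, the 4 without AI1061 being SLC11A2, SLC35A3, SLC44A4 and SLC6A17.

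Of the 42 differences of genes named by rule, 18 were counted as keeping their direction in every alternative that still held the gene. With dim features left out SLC26A5, SLC4A1, SLC6A17, SLC7A11 and SLC8A3 had no value. SLC37A4 had none with features near the upper end left out, and SLC17A1, SLC22A6 and SLC52A2 had none under platform symbols. The 18 include SLC37A4, whose difference was 0.00 and ran from -0.03 to 0.04 when 1 sow was left out. It is not among the differences listed below as turned by leaving out 1 sow. Array weights turned the difference of SLC16A9 to -0.01, SLC22A7 to 0.01, SLC27A3 to -0.31, SLC2A11 to 0.01, SLC2A8 to 0.02, SLC30A2 to -0.14, SLC34A3 to -0.10, SLC39A7 to -0.07 and SLC6A8 to -0.12. The brightest feature turned SLC1A5 to 0.12, SLC44A4 to 0.03 and SLC4A2 to -0.09, and SLC4A2 was also at -0.09 with dim features left out, which drops its dim feature. The cause of the other turns was not tested.

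Leaving out 1 sow turned 23 differences, with ranges of -0.57 to 0.08 for SLC11A1, -0.21 to 0.05 for SLC16A1, -0.01 to 0.06 for SLC16A9, -0.21 to 0.59 for SLC17A1, -0.10 to 0.08 for SLC1A5 and -0.82 to 0.08 for SLC22A7. They were -0.03 to 0.12 for SLC27A1, -0.21 to 0.24 for SLC27A3, -0.08 to 0.06 for SLC2A11, -0.17 to 0.09 for SLC2A8, -0.16 to 0.03 for SLC34A2 and -0.15 to 0.18 for SLC34A3. For SLC35B2 the range was -0.18 to 0.08, for SLC35C2 -0.13 to 0.03, for SLC39A7 -0.16 to 0.11, for SLC44A4 -0.25 to 0.01, for SLC4A11 -0.10 to 0.21 and for SLC4A2 -0.08 to 0.50. The last were -0.03 to 0.17 for SLC5A4, -0.10 to 0.03 for SLC6A12, -0.11 to 0.13 for SLC6A8, -0.41 to 0.26 for SLC7A11 and -0.36 to 0.11 for SLC7A7.

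Differences near the upper end of the scale are compressed, and those of features near background are uncertain.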

Other observations

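Some features were highest in the same 3 sows, AI943, AI1059 and AI1061, of which the first pair was inseminated and the last was not. The bright feature of SLC39A14 was at 13.94, 14.23 and 14.35 in them and at 12.87 to 13.54 in the others, the bright feature of SLC2A11 at 14.13, 14.47 and 14.64 against 13.23 to 13.78, and the bright feature of SLC29A1 at 12.27, 12.64 and 12.95 against 11.26 to 11.97. With a feature of SLC11A1 these were 4 of 218 member features (1.83%), and of all 45220 features 850 (1.88%) had this top 3, so that the share among solute carriers is that of the array. In SLC39A14, SLC2A11 and SLC29A1 the remaining features of the same gene were much dimmer and did not have these 3 sows as the highest.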
